A study of Mus musculus with 8 samples.

Results

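Oligodendrocyte precursor cells (OPCs) were followed across naïve and GL261 tumour-bearing mouse brain at single-cell resolution. Cells were chosen by measured values. A cell was taken as an OPC when the levels of Pdgfra, Tnr, Cacng4, Lhfpl3, Gpr17 and C1ql1 summed to at least 15 unique molecular identifiers (UMIs, counts of single captured mRNA molecules) per 10000 UMIs of that cell, with at least 3 of the 6 genes detected, and when the tumour-cell genes Col9a1, Lect1 and Rhox5 summed to under 10. Cells were drawn from the 1000 barcodes with the most UMIs in each library, with at least 500 genes detected. By this rule, 70 of 7861 cells were OPCs, and 69 of them came from tumour-bearing mice.

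All mice were C57BL/6 by the labels and C57BL/6N by the study's methods. They were either wild type, Irg1/Acod1 +/+ (WT), or Irg1/Acod1 -/- (KO), a constitutive insertion allele of the gene for the enzyme that makes itaconate, so every cell type of the KO mice carries it. Tumour-bearing mice received 500 GL261 cells, a syngeneic mouse glioma line, into the brain, and tissue was taken at a tumour volume on magnetic resonance imaging of 5 to 10 mm3 (early), 20 to 25 mm3 (intermediate) or 30 to 35 mm3 (late). Naïve mice were untreated. The ages of the mice are not given in the sources used here. Each of the 8 combinations of genotype and condition was 1 Drop-seq library, which reads the 3′ ends of mRNA from cells caught in droplets with barcoded beads. A naïve library is labelled with 2 mice and a tumour-bearing library with 1, so the 2 kinds also differ in the number of mice. No combination had a second library, so the spread between mice of the same genotype and condition was not measured. By the study's methods the early WT and intermediate KO mice were female and the other tumour-bearing mice male, so genotype and sex cannot be told apart at the early and intermediate stages. Tumour regions were macro-dissected, suspensions were cleared of myelin, and the position of a cell relative to the tumour was not recorded.

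OPCs are the dividing glial cells of the adult brain from which myelinating oligodendrocytes arise. They carry the PDGF receptor alpha and the proteoglycan NG2 (Cspg4), receive synapses from neurons through AMPA-type glutamate receptors, and pass through a short premyelinating stage, in which the receptor Gpr17 and then Bcas1 and Enpp6 are made, before they switch on myelin genes. Under interferon, glial cells can raise MHC class I and II genes, which present peptides to T cells.

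Median depth per library was 1598.5 to 5642.5 UMIs per cell. Of 7852 distinct barcodes, 2 appeared in more than 1 library and 0 of these were OPCs. Acod1 itself gave 0 UMIs in the OPCs of every library. In the cells meeting a microglia/macrophage gate it gave 161, 5 and 8 UMIs in the WT early, intermediate and late libraries and 31, 8 and 29 in the KO ones. Why the KO libraries gave Acod1 UMIs was not tested, so these counts alone cannot check the genotype labels. The paper reports that genotypes were checked by PCR. It also reports that qPCR did not detect Acod1 in bone marrow-derived macrophages of KO mice.

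The 6 genes of the rule are described here without a test, because they chose the cells. Pdgfra, the receptor through which PDGF keeps OPCs dividing, is a plus-strand gene of chromosome 5 (75152292 to 75198215, GRCm38). It gave 221 UMIs and was detected in 54 of 70 OPCs (77.1%). Tnr, which encodes the matrix glycoprotein tenascin-R (chromosome 1, 159523769 to 159931729), was detected in 60 OPCs. Cacng4, an AMPA receptor auxiliary subunit (chromosome 11, 107732357 to 107794557), and Lhfpl3 (chromosome 5, 22746059 to 23275597) were detected in 62 each. C1ql1, a secreted C1q-like protein (chromosome 11, 102939264 to 102946688), was detected in 44, and Gpr17, the receptor of the premyelinating stage, in 41. Pooled over tumour-bearing libraries, Pdgfra stood at 10.3 UMIs per 10000 in OPCs, 0 in mature oligodendrocytes and 0.16 in tumour cells. It stood at 0.247 in low-UMI barcodes, those ranked below 2000 in their library, which serve here as a measure of free RNA. These barcodes had a median of 252 to 521 UMIs in the tumour-bearing libraries, and whether they also hold cells was not tested. The other 5 genes stood at 4.04 to 18.2 in OPCs and at 0.0336 to 0.392 in mature oligodendrocytes.

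Among non-tumour cells with at least 3 of the genes, the gate left a gap, in the values that chose the cells. The OPCs with the lowest sums had 18.7, 21.4 and 22.1 UMIs per 10000, the median was 71.8 and the highest 189. Just outside, 7 non-tumour cells had at least 3 of the genes but a sum under 15, the highest of them at 7.97. A further 10 non-tumour cells passed the sum with only 2 of the genes, at sums of up to 68.1, and 3 of these were naïve. All 6 genes were detected in 17 OPCs, 5 in 22, 4 in 18 and 3 in 13. The tumour genes summed to 0 in 56 OPCs and to at most 8.38 in the others. The tumour-gene limit kept out 41 cells that met the OPC gate, 27 of them from the WT intermediate library. Gpr17 was detected in 39 of these and Pdgfra in 13, and their median tumour-gene sum was 84.9.

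Among marker genes of other brain cell types, the OPCs were low but not empty. Of 70 OPCs, 10 also met the gate of another class. These were 5 for neurons, 2 for astrocytes and 1 each for oligodendrocytes, microglia/macrophages and lymphocytes, while 0 met the endothelial or neuroblast gate. At 0 in all OPCs were the astrocyte gene Agt, the endothelial genes Cldn5, Flt1 and Slco1a4, the neuroblast genes Dlx2, Dlx6os1, Stmn2 and Sp9, and the neuronal genes Rbfox3 and Grin2b. The summed neuronal markers of a library's OPCs ranged from 4.86 to 11.9 UMIs per 10000, against 0.978 to 3.06 in low-UMI barcodes and a median of 146 in neurons. Of these markers, Meg3 alone gave 67 UMIs (3.53 per 10000) in the pooled OPCs of WT early, KO intermediate, WT late and KO late. The summed microglia/macrophage markers ranged from 0 to 40.2, and that highest value was in the KO late library, which holds the OPC that met this gate, with a sum of 196.

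Nearly all OPCs came from tumour-bearing tissue. The WT naïve library held 1 OPC among 976 non-tumour cells (0.103%, exact binomial 95% interval 0.00259 to 0.57) and the KO naïve library 0 among 889, which allows a share of up to 0.338% by a limit of 3 counts and up to 0.414% by the exact interval. The WT early library held 32 OPCs among 695 non-tumour cells (4.6%, 3.17 to 6.44) and the KO early library 4 among 325 (1.23%, 0.336 to 3.12). The WT intermediate library held 3 among 79 (3.8%, 0.79 to 10.7) and the KO intermediate library 12 among 393 (3.05%, 1.59 to 5.27). The WT late library held 8 among 249 (3.21%, 1.4 to 6.23) and the KO late library 10 among 398 (2.51%, 1.21 to 4.57). These intervals cover counting error only. All 6 tumour-bearing shares lay above both naïve ones.

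The mean share was 3.07% ± 1.15 (SD, n = 6 libraries) in tumour-bearing and 0.0512% ± 0.0725 (SD, n = 2) in naïve mice. The two-sided exact permutation test over libraries gave p = 0.0714, the smallest value that 6 against 2 libraries allow. With every cell thinned to 1500 UMIs, the shares ran from 1.07% to 3.87% in the tumour-bearing libraries and both naïve libraries held 0 OPCs. Mature oligodendrocytes were not scarce in naïve tissue, with 108 and 93 cells, and OPCs made up 0.917% and 0% of OPCs and oligodendrocytes together there, against 8.7% to 22.5% in the tumour-bearing libraries. A naïve sample was brain tissue and a tumour-bearing sample a macro-dissected tumour region, so tumour and dissection cannot be told apart.

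Between genotypes, the KO libraries had the lower share of non-tumour cells at each stage. The mean was 2.27% ± 0.936 (SD, n = 3) in KO and 3.87% ± 0.699 (SD, n = 3) in WT mice, a difference of -1.61 percentage points with an exact permutation p = 0.1, the smallest possible with 3 against 3. Taken over OPCs and oligodendrocytes together, the direction was lost, with 16.2% in KO and 16.1% in WT mice (exact permutation p = 1). The intermediate KO library was the higher one after thinning (1.94% against 1.85%), without OPCs meeting another gate (2.8% against 2.53%) and over all cells (1.2% against 0.3%), where the late KO library was higher too (1% against 0.802%).

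**Figure D1:**
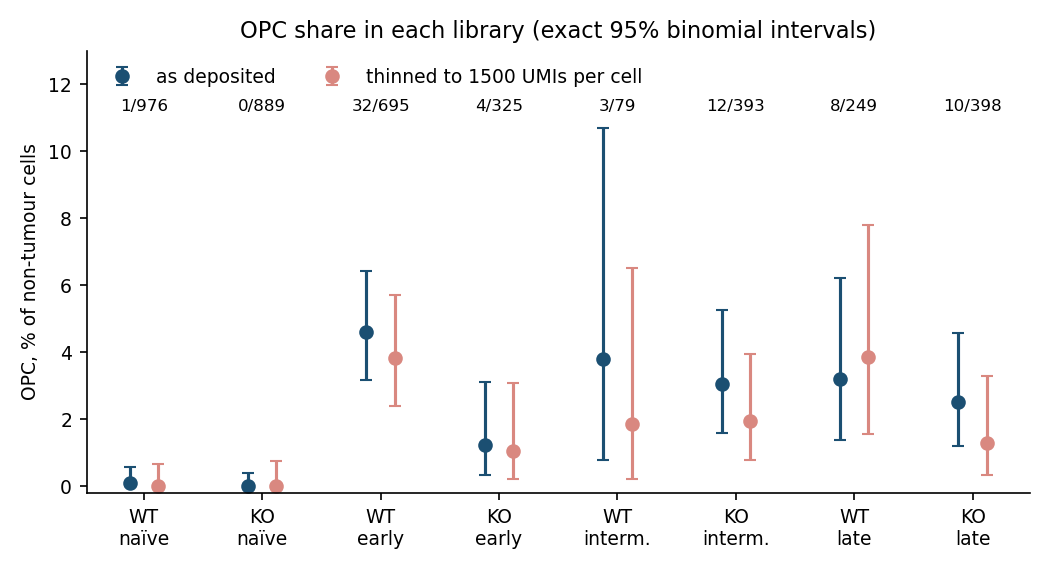
The y axis is the percentage of non-tumour cells that were OPCs and the x axis the 8 libraries, with dark points for cells as deposited, light points for cells thinned to 1500 UMIs, bars for exact 95% binomial intervals and the OPC and cell counts above. Both naïve libraries lie at or below 0.103%, and the 6 tumour-bearing libraries lie between 1.23% and 4.6% as deposited.

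OPCs were next set against the mature oligodendrocytes of the same mice, to describe the precursor state beyond the genes that chose the cells. UMIs were summed per library and class in the 4 libraries with at least 5 OPCs (WT early, KO intermediate, WT late and KO late), which hold 62 OPCs. Of 4087 genes tested by edgeR, 1015 (24.8%) passed an adjusted p of 0.05, 443 higher in OPCs (10.8%) and 572 lower (14%), and the median log2 fold change over all genes was -0.015. Without the WT early library, which holds 32 of the OPCs, 479 genes passed. Most OPC identity, synaptic and extracellular matrix genes tested were higher in OPCs, and every myelin gene tested was lower. The gate genes of both classes were left out of the test. The lists are described by counts, without a test of the list, and genes low in both classes did not pass the filter on counts. A gene almost absent from either class passed the filter through its counts in the other, which sets its direction. Each list count is to be read against the shares of all genes tested given here.

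Of 24 OPC identity genes, 22 were tested, 19 were higher, 0 lower, and the median log2 fold change was 4.14. Cspg5, a neural proteoglycan, stood at 17.1, 3.57, 8.33, 18.4, 29.2 and 16.4 UMIs per 10000 in the OPCs of the WT early, KO early, WT intermediate, KO intermediate, WT late and KO late libraries. In the oligodendrocytes of the same libraries Cspg5 stood at 0 to 0.331, so the groups did not overlap. Its log2 fold change was 7.13 ± 0.48 (edgeR adjusted p = 9.5e-21), where ± gives an approximate SE derived from the F statistic of the test. Ptprz1, a receptor phosphatase of glial progenitors, stood at 23.3 to 32.9 in OPCs and 0.11 to 0.793 in oligodendrocytes, with a log2 fold change of 5.38 ± 0.38 (edgeR adjusted p = 9.5e-20). Vcan, which encodes the matrix proteoglycan versican, was higher by 6.09 ± 0.47 (edgeR adjusted p = 6.7e-18).

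Cspg4, which encodes NG2, stood at 6.3, 3.57, 2.78, 4.61, 10.3 and 3.74 UMIs per 10000 in the OPCs of those 6 libraries, in the same order, and at most at 0.369 in oligodendrocytes. Every OPC library lay above every oligodendrocyte library, and the log2 fold change was 4.73 ± 0.46 (edgeR adjusted p = 1e-13). Ednrb, the endothelin receptor B, had 152 UMIs in OPCs and 4 in oligodendrocytes over the 4 libraries (6.76 ± 0.53, edgeR adjusted p = 1.9e-17). Sox6, a transcription factor of precursors, was higher by 3.81 ± 0.5 (edgeR adjusted p = 2.8e-09). Susd5 gave 38 UMIs against 0, at least 48.3-fold higher with the 0 set at 3 counts over the group.

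The factors that mark the whole lineage differed less. Olig2 was higher in OPCs by 1.76 ± 0.34 on the log2 scale (edgeR adjusted p = 2.3e-05). Olig1 had a log2 fold change of 0.77 ± 0.31 (edgeR adjusted p = 0.054), and Sox10 one of -0.31 ± 0.36 (edgeR adjusted p = 0.62). Neither of these passed, but Olig1 did without the KO intermediate library (0.983, edgeR adjusted p = 0.0388).

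All 12 myelin genes tested, of 18 listed, were lower in OPCs, with a median log2 fold change of -5.35. The 6 listed genes not tested are those of the oligodendrocyte gate. Mbp, which encodes myelin basic protein, stood at 1.87, 10.7, 51.4, 3.38, 3.78 and 15.9 UMIs per 10000 in the OPCs of the WT early, KO early, WT intermediate, KO intermediate, WT late and KO late libraries, and at 66.1, 91.4, 96.4, 76.2, 77.4 and 79.2 in their oligodendrocytes. Its log2 fold change was -4.43 ± 0.4 (edgeR adjusted p = 4e-15), and the WT intermediate library, with 3 OPCs, lay closest to oligodendrocytes. Low-UMI barcodes held Mbp at 4.47 to 12.9, at or above the OPC level of the same library in WT early, KO intermediate and WT late. Cnp, made earlier in myelination, was lower by -2.86 ± 0.35 (edgeR adjusted p = 2.2e-10).

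Genes of the latest stage were nearly missing from OPCs. Apod, which encodes apolipoprotein D, had 11 UMIs in OPCs and 8123 in oligodendrocytes, a log2 fold change of -7.79 ± 0.47 (edgeR adjusted p = 1.9e-22). Trf, which encodes transferrin, had 4 against 4629 UMIs, and Car2, a carbonic anhydrase, 3 against 3628. Apod in low-UMI barcodes stood at 4.08 to 7.49 UMIs per 10000, above the 0 to 1.4 of the OPC libraries.

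Of 17 committed-precursor genes, 13 were tested, 5 were higher, 3 lower, and the median was 0.71. Neu4, a sialidase of early differentiation, had 57 UMIs in OPCs and 1 in oligodendrocytes (edgeR adjusted p = 4.3e-11). Bmp4 had 29 against 0, at least 36.8-fold higher. Itpr2, a calcium-release receptor, was higher by 3.27 ± 0.43 (edgeR adjusted p = 3.2e-09) and Fyn, a kinase needed for myelination, by 2.07 ± 0.4 (edgeR adjusted p = 2.4e-05). Lower were Myrf, the master regulator of myelin transcription (-2.51 ± 0.61, edgeR adjusted p = 0.00077), Chn2 (-1.69 ± 0.41, edgeR adjusted p = 0.00067) and Enpp6 (-1.12 ± 0.44, edgeR adjusted p = 0.048), and Enpp6 lost its call without the WT early library (-0.69), the KO intermediate library (-1.25) or the WT late library (-0.839). Bcas1 had a log2 fold change of 0.71 ± 0.32 (edgeR adjusted p = 0.098) and stood at 10.4 to 21.5 UMIs per 10000 in OPC libraries against 4.52 to 8.88 in oligodendrocytes. It passed without the KO intermediate library (1.03, edgeR adjusted p = 0.0336) or the WT late library (0.825, edgeR adjusted p = 0.041).

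Of 22 synaptic receptor and channel genes, 12 were tested, 11 were higher and 1 lower, with a median log2 fold change of 4.55. Gria2, the AMPA receptor subunit that limits calcium entry, stood at 11.8, 15.5, 13.9, 9.21, 13.5 and 12.6 UMIs per 10000 in the OPCs of the WT early, KO early, WT intermediate, KO intermediate, WT late and KO late libraries. In oligodendrocytes Gria2 stood at 0.0923 to 0.471, below every OPC library, and its log2 fold change was 4.75 ± 0.41 (edgeR adjusted p = 1.2e-15). Gria3, another AMPA subunit, was higher by 5.29 ± 0.61 (edgeR adjusted p = 5.4e-11). Grin3a, an NMDA receptor subunit, had 26 UMIs against 0, at least 33-fold higher. The 1 gene that was lower was Kcnj10, the inward rectifier potassium channel of mature glia (-1.71 ± 0.38, edgeR adjusted p = 0.00025).

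Of 16 extracellular matrix genes, 11 were tested, 9 were higher and 1, Sparc, was lower, and the list shares Vcan, Bcan, Cspg4, Cspg5 and Ptprz1 with the identity list. Sparcl1 (hevin, a synaptogenic protein) was higher by 4.05 ± 0.36 (edgeR adjusted p = 1.7e-15) and the syndecan Sdc3 had 75 UMIs against 3 (edgeR adjusted p = 2.7e-12).

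The 3 tested Notch genes of 13 listed were all higher. They were Notch1, the receptor that holds precursors undifferentiated (3.05 ± 0.9, edgeR adjusted p = 0.0061), its ligand-like partner Dner (3.79 ± 0.65, edgeR adjusted p = 2e-06) and Dll3, with 15 against 1 UMIs. The other listed genes were not tested, and Dll3 could pass the filter on counts only through its OPC sums. The count of 3 is therefore not a result about Notch genes as a set.

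Growth factor genes went both ways. Of 24, 9 were tested, 2 were higher and 4 lower. Ntrk2, the BDNF receptor, was higher by 3.77 ± 0.65 (edgeR adjusted p = 2.3e-06) and Spry1, an inhibitor of receptor tyrosine kinase signalling, by 2.64 ± 0.74 (edgeR adjusted p = 0.004). Pdgfa, the ligand of the PDGF receptor alpha, was lower in OPCs by -2.98 ± 0.58 (edgeR adjusted p = 2.8e-05). Fgfr2 had 1 UMI in OPCs against 163 in oligodendrocytes, and Etv1 was lower by -2.84 ± 0.49 (edgeR adjusted p = 2.9e-06).

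Immediate early genes, which rise within minutes of a stimulus and also of tissue dissociation, were higher in 6 of the 13 tested, with 0 lower and a median of 1.34. Jun stood at 20.1, 77.4, 31.9, 18.1, 58.8 and 22.4 UMIs per 10000 in the OPCs of the WT early, KO early, WT intermediate, KO intermediate, WT late and KO late libraries and at 5.46 to 9.48 in oligodendrocytes. All OPC libraries lay above all oligodendrocyte libraries for Jun, with a log2 fold change of 1.74 ± 0.32 (edgeR adjusted p = 6.8e-06). Low-UMI barcodes held Jun at 6.45 to 8.92. Egr1 was higher by 2.07 ± 0.36 (edgeR adjusted p = 3.3e-06), Fosb by 2.15 ± 0.37 (edgeR adjusted p = 2e-06) and Fos by 1.48 ± 0.31 (edgeR adjusted p = 8.5e-05). All cells went through the same enzymatic dissociation, and its part in these values was not tested.

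Of 18 reactive glia genes, 11 were tested, 1 was higher and 4 lower. Higher was Socs3, a feedback inhibitor of cytokine signalling (1.57 ± 0.53, edgeR adjusted p = 0.019). The alarmin Il33 was lower by -5.83 ± 0.51 (edgeR adjusted p = 1.6e-15), the serine protease inhibitor Serpina3n by -1.41 ± 0.4 (edgeR adjusted p = 0.004) and complement C4b by -1.36 ± 0.38 (edgeR adjusted p = 0.0034). Klk6, a protease of mature oligodendrocytes, had 0 UMIs in OPCs against 521, at least 45.6-fold lower. The calls of Socs3 and C4b were lost without the WT early library (edgeR adjusted p = 0.124 and 0.0998), that of Socs3 also without KO intermediate (edgeR adjusted p = 0.223), and that of Serpina3n without KO late (edgeR adjusted p = 0.0572).

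The genes with the largest differences in the same direction in all 4 libraries were mostly at 0 in one class. Higher in OPCs and at 0 in oligodendrocytes were Lrp1, a lipoprotein receptor (58 UMIs, at least 73.7-fold higher), Fxyd6 (52 UMIs), Tmem100 (50), Ramp1 (49), Cdo1 (46), Brinp1 (45), Atp1b2 (40) and Susd5. At 0 in OPCs were Pex5l (821 UMIs in oligodendrocytes, at least 71.8-fold lower), Klk6, the receptor Gpr37 (448), Ppp1r14a (415), Spock3 (375), Hapln2 (304) and Arsg (246), and Car2 completed the list with its 3 UMIs.

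**Figure D2:**
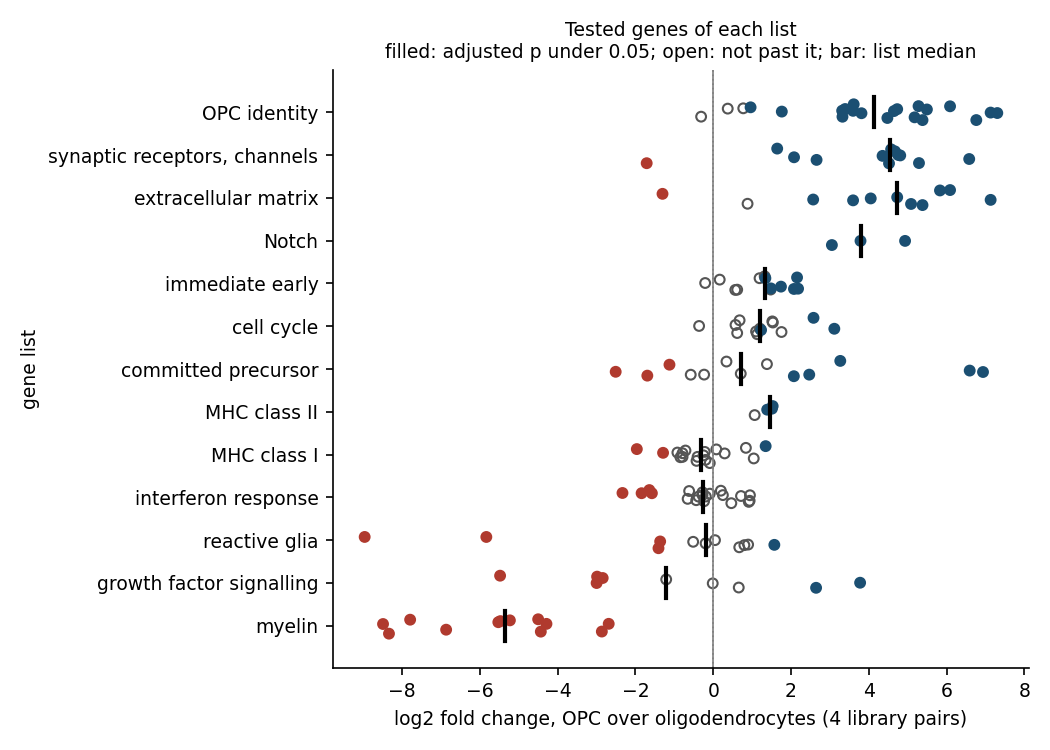
Each point is a tested gene, placed by its log2 fold change of OPCs over mature oligodendrocytes in 4 library pairs (x axis) within its gene list (y axis). Filled points passed an edgeR adjusted p of 0.05, open points did not, and the bars mark list medians, which run from -5.35 for myelin to 4.73 for extracellular matrix.

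The same OPC libraries were compared with astrocytes, the other main glial class. Of 755 genes tested by edgeR, 356 (47.2%) passed, 161 higher in OPCs (21.3%) and 195 lower (25.8%), and the median log2 fold change was 0.15. Without the WT early library 222 genes passed, and relative log expression scaling moved the median by -0.106. Several genes that were higher than in oligodendrocytes did not pass here, whereas the lineage factors did.

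Of the OPC identity genes, 15 were tested, 11 were higher and 1 lower, with a median of 3.18. Sox10 was higher by 4.12 ± 0.73 (edgeR adjusted p = 0.00014), Olig2 by 3.55 ± 0.41 (edgeR adjusted p = 1.1e-06) and Olig1 by 3.18 ± 0.37 (edgeR adjusted p = 1.2e-06). Vcan was higher by 5.16 ± 0.49 (edgeR adjusted p = 1.4e-07), and Cspg4 had 116 UMIs in OPCs and 2 in astrocytes. Cspg5 stood at 7.98 to 19.8 UMIs per 10000 in astrocytes, overlapping the OPC libraries, with a log2 fold change of 0.15 ± 0.31 (edgeR adjusted p = 0.7). Ptprz1 had 0.37 ± 0.29 (edgeR adjusted p = 0.31) and Ednrb -0.20 ± 0.33 (edgeR adjusted p = 0.63). The proteoglycan Bcan was lower in OPCs by -1.15 ± 0.33 (edgeR adjusted p = 0.0081).

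All 5 committed-precursor genes tested were higher. Bcas1 was higher by 4.86 ± 0.49 (edgeR adjusted p = 2.1e-07), Cd9 by 1.65 ± 0.37 (edgeR adjusted p = 0.0012) and Sirt2, a deacetylase of the oligodendrocyte lineage, by 2.1 ± 0.52 (edgeR adjusted p = 0.0029). Of 4 myelin genes tested 3 were higher, among them Cnp (2.4 ± 0.43, edgeR adjusted p = 0.000165) and Mbp (1.42 ± 0.53, edgeR adjusted p = 0.033), and Car2 was lower. Mbp stood at 1.87 to 51.4 UMIs per 10000 in OPC libraries and at 4.47 to 12.9 in low-UMI barcodes, and the part of free RNA in these differences was not tested.

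Of 5 synaptic genes 1 was higher and 3 lower. Gria3 had 61 UMIs in OPCs and 3 in astrocytes. The GABA-A receptor subunit gene Gabrb1 was lower by -4.70 ± 0.54 (edgeR adjusted p = 1.1e-06), and Kcnj10 had 44 against 183 UMIs (edgeR adjusted p = 0.00027). Gria2 stood at 9.21 to 15.5 in OPC libraries and 2.39 to 12.6 in astrocytes (edgeR adjusted p = 1). Sparcl1, at 70.2 to 138 in astrocytes and 7.64 to 27 in OPCs, was lower by -2.66 ± 0.27 (edgeR adjusted p = 2.8e-07), and Ntrk2 by -2.58 ± 0.41 (edgeR adjusted p = 4.8e-05).

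All 6 immediate early genes tested were higher than in astrocytes, among them Fos (2.95 ± 0.39, edgeR adjusted p = 5.4e-06) and Jun (2.19 ± 0.39, edgeR adjusted p = 0.00015). Of 4 reactive glia genes, Cd63 was lower and the others did not pass, Vim with a log2 fold change of -0.66 ± 0.56 (edgeR adjusted p = 0.35). The 1 tested Notch gene, Dner, had -0.03 ± 0.45 (edgeR adjusted p = 0.97).

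Largest and of one direction in all 4 libraries were, on the OPC side, 3110035E14Rik (125 UMIs against 1), Pllp (115 against 3), Qpct (68 against 1), Dnm3 (54 against 1), Plppr5 (49 against 1), Igsf9b (38 against 0, at least 17.5-fold higher), Cspg4 and Vcan. On the astrocyte side S1pr1, a sphingosine phosphate receptor, had 396 UMIs against 0 in OPCs, at least 95.8-fold lower. Fxyd1 (198 UMIs against 0), Mlc1 (196), the thyroid hormone transporter Slco1c1 (134), the cystine transporter Slc7a11 (101), Thrsp (73) and Clmn (73) were also at 0 in OPCs, and Selenop had 253 against 1.

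**Figure D3:**
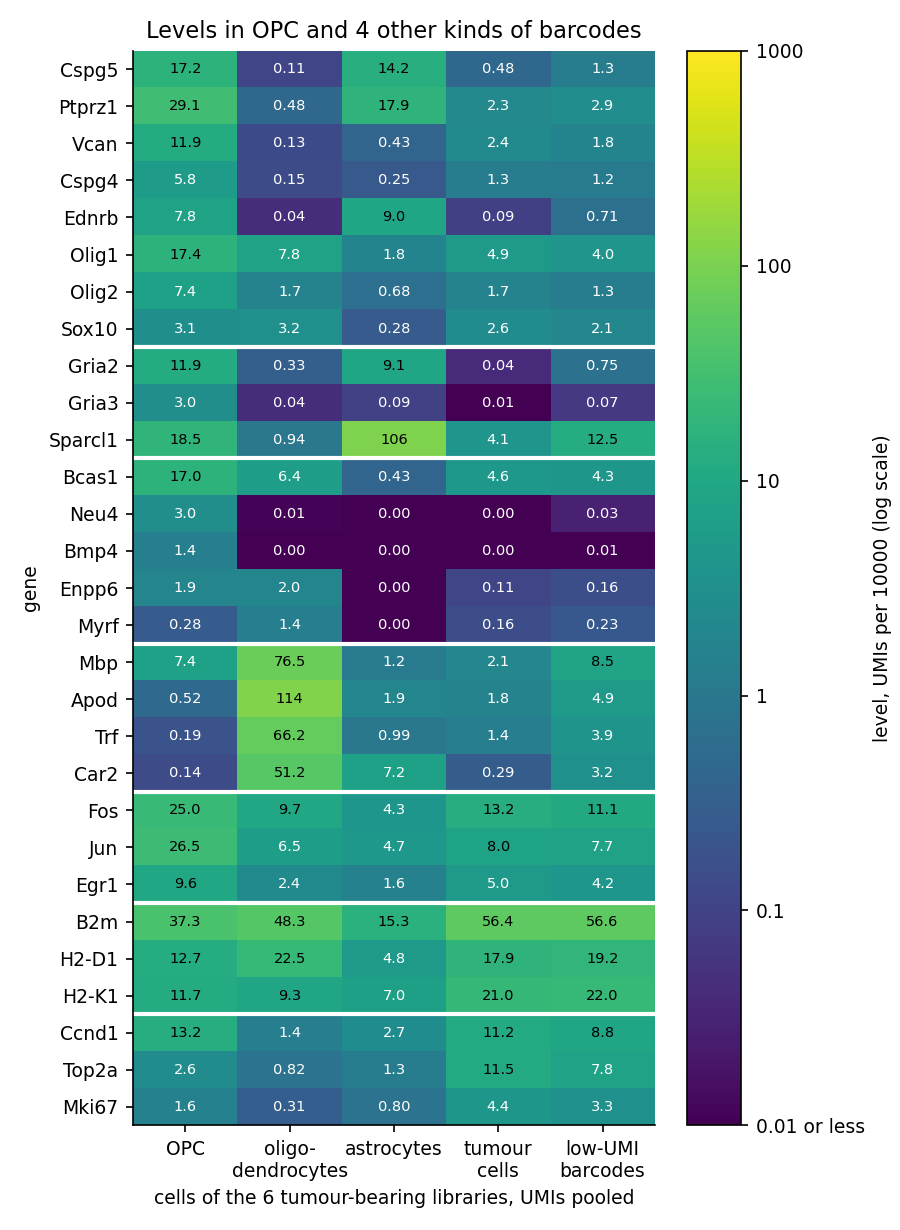
Colour and numbers give the level in UMIs per 10000 (log colour scale) of genes named in the text (rows) in OPCs, mature oligodendrocytes, astrocytes, tumour cells and low-UMI barcodes (columns), pooled over the 6 tumour-bearing libraries. Cspg5, Ptprz1, Ednrb and Gria2 are shared with astrocytes, Olig1, Olig2 and Sox10 are lower there, and Mbp, Apod, Trf and Car2 stand highest in oligodendrocytes.

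The OPCs were not uniform in differentiation stage. Pdgfra and Gpr17 were both detected in 30 cells, Pdgfra alone in 24, Gpr17 alone in 11 and neither in 5. The 11 cells with Gpr17 alone came from all 6 tumour-bearing libraries. WT early and KO late held 3 each, KO early 2, and WT intermediate, KO intermediate and WT late 1 each. Counts of libraries for these cells therefore rest on 1 to 3 cells per library. These groups were formed from the measured genes after the values were known, so they are described without a test, and a cell of few UMIs can lack either gene by sampling. The median depth was 3013 UMIs with both genes, 1598 with Pdgfra alone and 1921 with Gpr17 alone.

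The cells with Gpr17 alone carried the premyelinating genes. Bcas1, a marker of newly forming oligodendrocytes, stood at 72.5 UMIs per 10000 in them and was detected in 11 of 11, against 6.55 and 34 of 54 in the Pdgfra-positive cells, and it was the higher in 6 of 6 libraries. Enpp6, a phosphodiesterase of newly formed oligodendrocytes, stood at 10.4 (5 of 11 cells) against 0 (0 of 54). Sirt2 stood at 37.5 against 3.79 and Cnp at 22.7 against 1.95, each higher in 5 of 6 libraries. Mbp stood at 38.5 against 1.55 but was higher in only 3 of 6 libraries.

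Precursor genes went the other way. Cspg5 gave 1 UMI in the 11 cells (0.315 per 10000) against 364 in the 54 (20.9 per 10000, detected in 53). Ptprz1 stood at 5.99 against 34.1 and Ednrb at 0.946 against 9.07, and these 3 genes were lower in 6 of 6 libraries. Vcan, at 10.7 against 12.8, and Neu4, at 5.05 against 2.7, were closer. The premyelinating genes came from few cells, since for each gene the 5 OPCs richest in it held 77.7% of all Mbp UMIs and 60.6% of Bcas1, but 26.2% of Pdgfra. The OPC with the most Gpr17, from the WT early library, had 26 Gpr17, 122 Bcas1 and 0 Pdgfra UMIs of 8737.

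**Figure D4:**
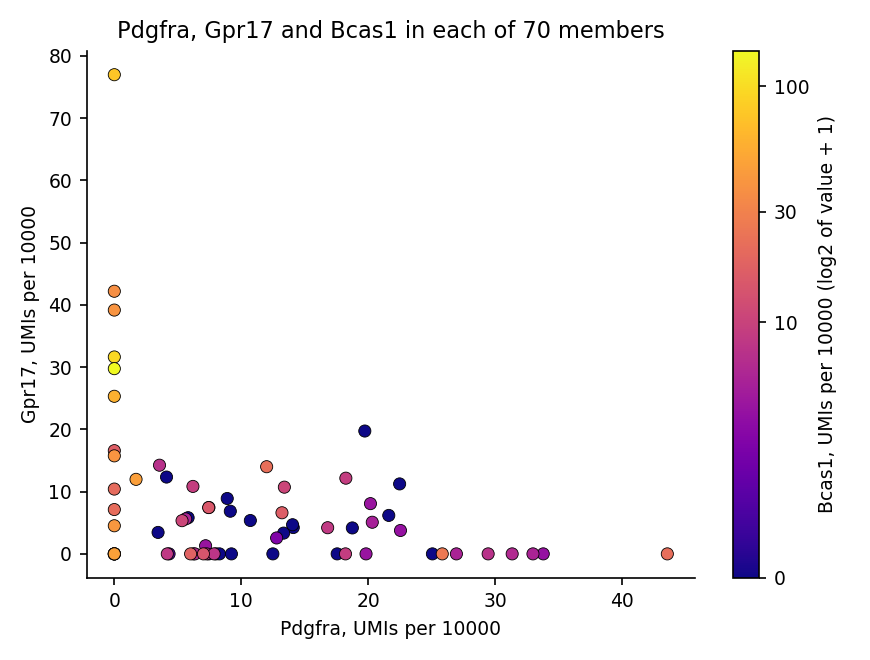
Each of the 70 points is an OPC, with Pdgfra on the x axis, Gpr17 on the y axis (both UMIs per 10000) and Bcas1 as the colour (log2 of value + 1). The highest Gpr17 and Bcas1 values lie on the left edge, where Pdgfra was not detected.

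A test over libraries was possible only for all Gpr17-positive against all Gpr17-negative OPCs, in the 3 libraries with at least 3 cells of each. Gpr17 is a gene of the rule, so a Gpr17-negative OPC had met the rule through the other genes. The sides therefore differ in part by the choice of cells. With edgeR and the library as a block, 0 of 247 genes (0%) passed, 13 had an unadjusted p under 0.05 and DESeq2 called 0. Sirt2 came closest, with a log2 fold change of 2.04 ± 0.6 (edgeR adjusted p = 0.095), higher in 2 of 3 libraries, then Mbp with 1.69 ± 0.63 (edgeR adjusted p = 0.41). Without the KO intermediate library 7 genes passed, Sirt2 (3.46, edgeR adjusted p = 0.00261) and Bcas1 (2.58, edgeR adjusted p = 0.0219) among them, and without the KO late library Sirt2 had 0.863 (edgeR adjusted p = 0.978).

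Of all 70 OPCs, 23 had 0 UMIs of 25 S, G2 and M phase genes. At least 3 of these genes were detected in 23 of 69 OPCs (33.3%, exact binomial 95% interval 22.4 to 45.7). After thinning every cell to 1000 UMIs the count was 12 of 69 (17.4%, 9.32 to 28.4), against 16 of 316 oligodendrocytes (5.06%, 2.92 to 8.09), 5 of 139 astrocytes (3.6%, 1.18 to 8.2) and 61.7% of tumour cells. These intervals pool cells over libraries and cover counting error only. By library, 6 of 32 thinned OPCs met this in WT early, 0 of 4 in KO early, 1 of 3 in WT intermediate, 2 of 12 in KO intermediate, 3 of 8 in WT late and 0 of 10 in KO late. The share was above that of oligodendrocytes in WT early, WT intermediate, KO intermediate and WT late and below it in KO early (4.76% of oligodendrocytes) and KO late (15.4%). Low-UMI barcodes carried the same genes, at 23 to 50.9 UMIs per 10000 against 5.14 to 29.5 in OPC libraries, and the part of free RNA was not tested. One WT early OPC of 15294 UMIs with 17 of the genes held 43.9% of all 453 cycle UMIs, and its tumour-gene sum was 0.

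Against oligodendrocytes, 3 of 13 tested cycle genes were higher and 0 lower, where 10.8% of all genes tested were higher and 14% lower. Ccnd1, the cyclin that carries mitogen signals into the G1 phase, stood at 16.6, 9.53, 5.56, 7.68, 12.4 and 10.3 UMIs per 10000 in the OPCs of the WT early, KO early, WT intermediate, KO intermediate, WT late and KO late libraries and at 0.513 to 2.77 in oligodendrocytes, without overlap. Its log2 fold change was 2.58 ± 0.37 (edgeR adjusted p = 4.3e-08), and against astrocytes it was 3.03 ± 0.59 (edgeR adjusted p = 0.00032). Low-UMI barcodes held Ccnd1 at 3.1 to 12, above the OPC level of the same library in WT intermediate, KO intermediate and KO late. The mitotic genes Nusap1 (3.11 ± 1.05, edgeR adjusted p = 0.02) and Top2a (1.23 ± 0.48, edgeR adjusted p = 0.049) also passed, but Top2a turned to -0.095 without the WT early library and lost its call without KO intermediate (1.55, edgeR adjusted p = 0.0917), and Nusap1 did not pass with DESeq2. Mki67 had 1.75 ± 0.7 (edgeR adjusted p = 0.058), and it passed without KO late (2.59, edgeR adjusted p = 0.0178).

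UMIs of MHC class I genes were counted in the OPCs of every tumour-bearing library, at levels that differed several-fold between mice. The summed level of 19 class I and peptide-loading genes was 87.7 UMIs per 10000 (exact Poisson 95% interval 82.4 to 93.2) in WT early, 126 (103 to 153) in KO early, 27.8 (19.8 to 37.8) in WT intermediate, 133 (121 to 146) in KO intermediate, 28.6 (21.4 to 37.4) in WT late and 164 (147 to 182) in KO late OPCs. In the oligodendrocytes of the same libraries it was 111, 203, 18.5, 128, 35.2 and 175, and 11.7 and 10.9 in the WT and KO naïve ones. In low-UMI barcodes it was 128, 207, 79.6, 183, 71.2 and 204. In OPCs, oligodendrocytes and low-UMI barcodes alike, the 3 KO libraries lay above WT early, and WT early above the other WT libraries. Astrocytes had another order, at 33.1, 64.2, 92.1, 36.2, 29.3 and 110 in the same 6 libraries. The part of free RNA in the OPC values was not tested.

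B2m, the light chain of class I molecules, stood at 34, 53.6, 4.86, 56.2, 7.56 and 68.2 UMIs per 10000 in the OPCs of the WT early, KO early, WT intermediate, KO intermediate, WT late and KO late libraries. It was detected in 29 of 32, 4 of 4, 2 of 3, 12 of 12, 7 of 8 and 8 of 10 OPCs, and the median OPC of each library had 15.9, 17.2, 8.4, 84.7, 4.68 and 60.8. Every KO library lay above every WT library in pooled B2m. In KO early, 1 OPC of 1921 UMIs held 34 B2m UMIs and the other OPCs held 2, 4 and 5, so that pooled level rested mainly on 1 cell. In oligodendrocytes B2m stood at 49, 102, 6.03, 57.3, 11.5 and 76.9, and in low-UMI barcodes at 52.2, 83.6, 29.5, 73.7, 25.9 and 72.1.

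Against oligodendrocytes, 18 of the 19 class I genes were tested, 1 was higher and 2 lower, with a median log2 fold change of -0.33. Of all genes tested there, 10.8% were higher and 14% lower, so the list as a whole did not stand out by these counts. H2-D1, a classical class I heavy chain, was lower in OPCs by -1.29 ± 0.32 (edgeR adjusted p = 0.0011) and the nonclassical H2-T23 by -1.96 ± 0.47 (edgeR adjusted p = 0.00063). Psme1, a proteasome activator subunit, was higher by 1.35 ± 0.39 (edgeR adjusted p = 0.0051). B2m had -0.71 ± 0.31 (edgeR adjusted p = 0.086) and H2-K1 -0.20 ± 0.32 (edgeR adjusted p = 0.75). The calls of H2-T23 and Psme1 were lost without WT early (edgeR adjusted p = 0.116 and 0.061), that of Psme1 also without KO intermediate. Against astrocytes 8 were tested and 3 were higher, where 21.3% of all genes tested were higher. These were B2m (1.17 ± 0.44, edgeR adjusted p = 0.035), H2-D1 (1.22 ± 0.38, edgeR adjusted p = 0.013) and H2-Q7 (2.33 ± 0.76, edgeR adjusted p = 0.018). Each of these lost its call without the KO intermediate library (0.508, 0.918 and 1.79), B2m and H2-D1 also without WT early (0.867 and 0.839).

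Interferon-response genes were below their level in free RNA in every tumour-bearing library. The 30 genes summed to 36.6, 44.1, 30.6, 73.1, 14 and 67.3 UMIs per 10000 in the OPCs of the WT early, KO early, WT intermediate, KO intermediate, WT late and KO late libraries, against 49, 88.7, 10.6, 46, 19 and 78.4 in oligodendrocytes. In low-UMI barcodes they summed to 48.4, 105, 61.6, 78.6, 36.8 and 99.2. Of 20 tested against oligodendrocytes, 0 were higher and 4 lower in OPCs, where 10.8% of all genes tested were higher and 14% lower. The 4 were Xaf1 (-2.33 ± 0.49, edgeR adjusted p = 9.3e-05), Ifi27l2a (-1.84 ± 0.42, edgeR adjusted p = 0.00029) and the interferon-inducible GTPases Igtp (-1.64 ± 0.43, edgeR adjusted p = 0.0016) and Iigp1 (-1.58 ± 0.46, edgeR adjusted p = 0.0053). Without WT early, Xaf1 and Igtp lost their calls (-1.38 and -1.44, edgeR adjusted p = 0.0971 and 0.0712). Of 10 tested against astrocytes, 0 passed with edgeR, with 0 at an unadjusted p under 0.05.

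MHC class II genes were carried mainly by 1 cell. Of 270 class II UMIs over all OPCs, 152 were in 1 KO late OPC that also met the microglia/macrophage gate. Against oligodendrocytes H2-Aa (1.39 ± 0.43, edgeR adjusted p = 0.0096), H2-Ab1 (1.51 ± 0.47, edgeR adjusted p = 0.0099) and H2-Eb1 (1.53 ± 0.43, edgeR adjusted p = 0.0044) were higher, and with the OPCs meeting another gate left out they had 0.155, 0.186 and 0.587 (edgeR adjusted p = 0.91, 0.87 and 0.59). Without the KO late library they had 0.585, 0.231 and 1.27 and lost their calls. The invariant chain Cd74 had 1.06 ± 0.46 (edgeR adjusted p = 0.081).

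**Figure D5:**
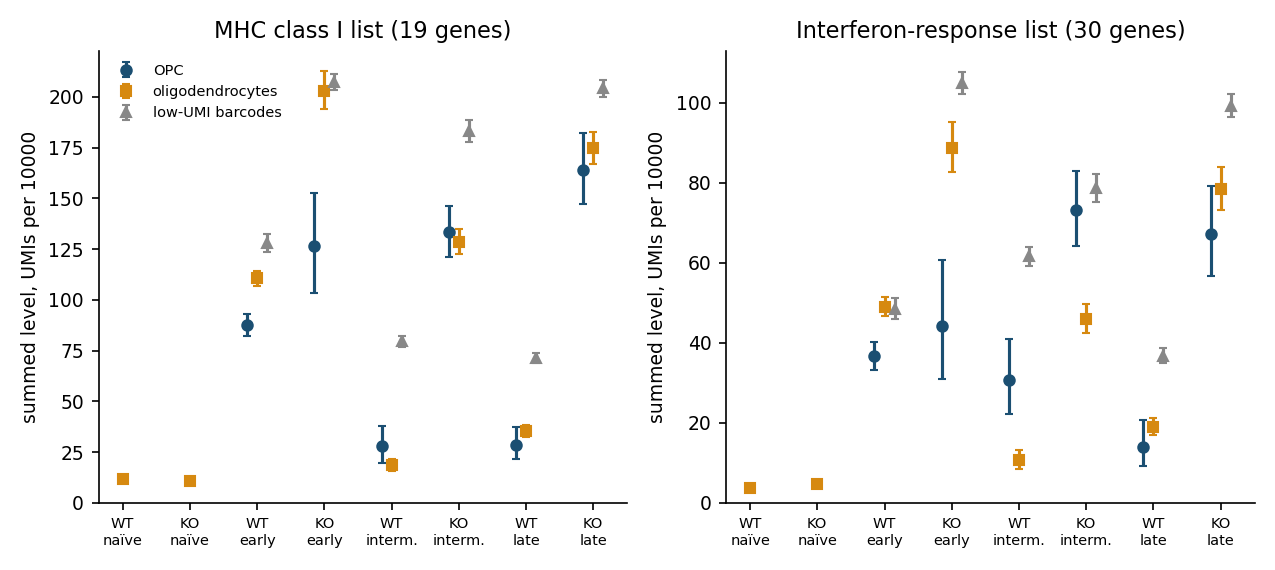
The y axes are the summed levels, in UMIs per 10000, of 19 MHC class I and peptide-loading genes (left) and 30 interferon-response genes (right) by library (x axis), in OPCs, mature oligodendrocytes and low-UMI barcodes, with exact 95% Poisson intervals. OPC class I sums lie between 27.8 and 164 with the 3 KO libraries above the 3 WT ones, and the naïve libraries are shown for oligodendrocytes only.

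KO and WT OPCs were compared over all 6 tumour-bearing libraries with at least 3 OPCs and stage as a covariate. With edgeR 0 of 297 genes (0%) passed, 8 had an unadjusted p under 0.05, and DESeq2 called 0. The largest estimates among class I genes were B2m (2.44 ± 0.75), H2-D1 (2.39 ± 0.67) and H2-K1 (2.17 ± 0.74), and beside them stood Fth1, the ferritin heavy chain (1.79 ± 0.46), and the antiviral membrane protein Ifitm3 (1.74 ± 0.6), all on the log2 scale with an edgeR adjusted p = 0.99. The levels of all KO libraries lay above those of all WT libraries in 4 of the 6 class I and peptide-loading genes tested, of 19 listed. These were B2m, H2-D1, H2-K1 and the peptide-loading gene Calr. The same held in 2 of the 4 interferon-response genes tested, of 30 listed. Of all 297 genes, 19 did so (6.4%). All KO libraries lay below all WT libraries in 0 of these list genes, against 14 of 297 (4.71%). H2-D1, for example, stood at 23.8, 14.7 and 22 UMIs per 10000 in the KO and at 12.9, 1.39 and 1.62 in the WT early, intermediate and late libraries. B2m was also among the 4 genes named above, with most of its KO early UMIs in 1 OPC. Without the WT early library, which holds 32 of the 69 OPCs, 8 genes passed, with B2m at 3.46, H2-D1 at 3.67 and H2-K1 at 3.49 (edgeR adjusted p = 0.00225). Fth1 passed without KO intermediate (2.06). Low-UMI barcodes held B2m at 72.1 to 83.6 in the KO and 25.9 to 52.2 in the WT libraries. They thus differed between genotypes in the same direction, and the part of free RNA was not tested. None of the 11 identity, 5 committed-precursor or 5 myelin genes tested had an unadjusted p under 0.05 between genotypes.

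Between late and early OPCs, 0 of 297 genes (0%) passed with edgeR, 8 had an unadjusted p under 0.05 and DESeq2 called 0. Gm42418, which overlaps ribosomal RNA sequence, had the smallest p, with a log2 fold change of -2.17 ± 0.55 (edgeR adjusted p = 0.99). B2m had -1.13 ± 0.87 (edgeR adjusted p = 0.99), and it changed sign to 0.639 without WT early.

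The 1 naïve OPC can be described only by its counts. It had 1272 UMIs, a gate sum of 47.2 with Pdgfra (1 UMI), Cacng4 (3) and Lhfpl3 (2), and also met the neuron gate with a sum of 23.6. It held 7 Olig1, 5 Vcan, 3 Cspg5 and 3 Ptprz1 UMIs. Of the class I and peptide-loading genes it held 4 Calr and 1 H2-K1 UMIs, and the interferon-response genes summed to 0. No test against naïve OPCs was possible.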

How the data were processed

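Per the labels, single-cell suspensions of brain were made into Drop-seq libraries and sequenced on a NextSeq instrument. The authors deposited 1 table of UMI counts per library, each with 3000 barcodes, not normalized. The processing notes name bcl2fastq 2.0, STAR and GRCm38 (mm10), and the annotation is not given in the sources used here. Gene positions are those of GENCODE M21.

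Cells were kept and classed as stated in the report, and a class other than OPC needed 3 of its 6 marker genes at a sum of at least 15 UMIs per 10000 and no other gate met. The members and gene lists were chosen with earlier results of these data known. UMIs were summed per library and class and tested with edgeR 4.0.16 (R 4.3.3, TMM scaling, filterByExpr, quasi-likelihood test, library as block, Benjamini-Hochberg over all genes tested, 0.05). The approximate SE of a log2 fold change is its absolute value divided by the square root of the quasi-likelihood F statistic. Sums needed at least 5 cells, or 3 for KO against WT and late against early, where 5 left no residual degrees of freedom. Shares were compared by exact permutation over libraries (Python 3.11.15). Named genes were list members and in each direction the 8 called genes with the largest fold change whose sign did not vary between libraries. In simulated counts with 8-fold changes, 81% of 200 changed genes were called against oligodendrocytes (4101 genes) and 100% of 200 against astrocytes (766). For KO against WT it was 90.1% of 101 (304), for late against early 84.2% of 101 (304) and for Gpr17 95.2% of 84 (253). Unchanged genes called were 1, 13, 1, 4 and 2 in that order. The simulation gave every gene the same fixed dispersion and, apart from the set change, the same mean in all libraries. These shares therefore need not hold at the real spread between mice or for smaller changes. Some list genes are counted but not reported here by name. Alternatives were DESeq2 1.42.0, other scaling, filters, gates and cell minimums, no block and each library left out. Doublets were not called, and cells of 2 gates were left out as an alternative.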

Additional observations from a re-analysis of the deposited data

Results flagged for a closer look

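The summed MHC class II level of the KO late OPCs, 75.2 UMIs per 10000, lay far from the other tumour-bearing libraries, which stood at 7.33 (WT early), 5.96 (KO early), 0 (WT intermediate), 5.22 (KO intermediate) and 0.54 (WT late). Of its 161 UMIs, 152 were in 1 OPC that also met the microglia/macrophage gate, and 9 remained without that cell. It was the 1 of 31 values tested that stood apart in this way, and chance flags about 1 in 20 groups.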

How the results depend on the processing

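Alternatives changed 1 choice at a time, except that the stricter and looser gates changed the sum and the number of genes together. Comparisons between cells of the same library carried the library as a block, and KO against WT carried the stage. Of the main counts and shares, 83 alternative values stayed within their limits, 11 moved and 1 reversed, and of named genes 1235 kept direction and side of the threshold, 63 lost the call, 25 gained it and 13 changed sign. Genes called against oligodendrocytes numbered 479 to 998 with 1 library left out, 479 of them without WT early. Against astrocytes they were 611 with no filter on low counts, 228 with at least 1000 genes per cell and 222 (without WT early) to 470 with 1 library left out. KO against WT gave 1 gene with a gate sum of 20 and 4 genes, and 0 to 8 with 1 library left out (8 without WT early, 1 without KO intermediate, 1 without KO late). Late against early gave 0 to 1, the 1 without KO late. Gpr17-positive against Gpr17-negative OPCs gave 2 at the stricter gate and 0 to 7 with 1 library left out. The difference in share between KO and WT was 0.0605 percentage points with OPCs and oligodendrocytes as denominator. Genes that changed sign were, against oligodendrocytes, Top2a (-0.095, without WT early, to 1.923 with 1 library left out). Against astrocytes they were Cspg5 (-0.135 with no filter, -0.026 with at least 10 cells per sum and, the same fit, without WT late, up to 0.188), Ednrb (0.045 with at least 1000 genes, 0.009 with no block) and Gria2 (0.231 with at least 1000 genes, 0.006 at the stricter gate, 0.124 without OPCs meeting another gate, 0.049 without those over 10000 UMIs, -0.147 to 0.08 with 1 library left out, 0.08 without KO intermediate, 0.181 with no block). Late against early it was B2m (-2.372 to 0.639, without WT early). None of these genes passed in its main fit except Top2a, and the cause was not tested. The settings on 10000 UMIs, the minimum of 3 cells and, for Gpr17, no block were chosen after seeing the data. Summed OPC libraries held 8395 to 117387 UMIs in the genotype and stage tests and 21409 to 117387 in the Gpr17 test.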
